A study of Sus scrofa with 12 samples.

Results

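The nuclear genes for subunits of the respiratory chain and the ATP synthase were examined in boar sperm by MeRIP-seq. They were chosen by symbol from the RefSeq annotation of the pig genome (Sscrofa11.1) as every mRNA gene named NDUFA, NDUFB, NDUFC, NDUFS or NDUFV with a number, SDHA to SDHD, or with a symbol that begins with UQCR, COX4 to COX8 or ATP5. The rule gave 68 of 20678 mRNA genes, with 37 for complex I, 4 for complex II, 2 for complex III, 8 for complex IV and 17 for complex V. ATP5S and ATP5SL carry the ATP5 prefix but do not encode subunits of the ATP synthase, and they are given here with complex V only because of their names. Several subunits of complexes III and IV have only a locus number as symbol in this annotation and therefore lie outside the rule.

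MeRIP-seq pulls down fragments of about 100 nucleotides that carry N6-methyladenosine (m6A) with an antibody (IP) and compares them with the input RNA. Sperm of 3 Duroc boars were analysed fresh (Fs) or after cryopreservation (Fts), and each group had 3 IP and 3 input samples. The fresh part of each ejaculate was snap-frozen in liquid nitrogen, without extender or slow cooling, and kept at low temperature until RNA extraction. The other part was cooled to 17 °C, diluted in lactose-egg yolk extender, cooled to 4 °C, diluted again with 6% glycerol, held in nitrogen vapour at -130 °C for 15 min and stored in liquid nitrogen in straws until it was thawed. No other treatment, genotype or age distinguished the groups in the labels.

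The respiratory chain passes electrons from NADH and succinate through complexes I to IV to oxygen and pumps protons across the inner mitochondrial membrane. Complex V, the ATP synthase, uses the return of the protons to make ATP. In sperm the mitochondria are packed around the midpiece of the flagellum, and their mRNAs for nuclear-encoded subunits are made before the cell becomes transcriptionally silent. m6A is placed by a methyltransferase complex mainly within the RRACH motif, in which R is A or G and H is A, C or T, which makes 12 words of 5 letters.

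The 6 peak lists held 8015 to 10378 peaks in the Fs samples and 9682 to 11982 in the Fts samples, of 61902 in all. On mRNA exons of the same strand lay 53893 of them, a share of 84.4% to 85.1% in Fs and 87.6% to 90.1% in Fts. The peak lists hold no read counts and the read totals of the libraries were not used here, so the depth behind a peak is not given, and more RNA of a gene and more methylation of it cannot be told apart. The score of a peak is the MACS score as deposited, which grows with -log10 of the p of the peak, and the highest was 3221.02. No peak lay on the mitochondrial chromosome, which encodes the other subunits of complexes I, III, IV and V. The lists hold only peaks that the authors kept on mRNAs, and they do not show whether mitochondrial peaks were left out at that step. The sperm markers had a peak on 12 of 20 genes, but a peak list does not measure expression, and AKAP4, ODF1, PRM1, SMCP and TNP1 were among those without. Peaks were also called on 5 of 8 leukocyte, 5 of 7 epithelial and 6 of 6 stromal marker genes. At the share of other genes of equal mRNA length, 9.57 sperm, 4.24 leukocyte, 3.39 epithelial and 3.73 stromal genes would have one. Of all mRNA genes, 56.6% had a peak in at least 1 sample.

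Of the 68 genes, 39 had a peak in at least 1 sample and 29 had none (background of all mRNA genes with a peak, 56.6%). They had 116 peaks in all, 44 in Fs and 72 in Fts samples, and none of these peaks was shared with another mRNA gene on the same strand. The subunit mRNAs are short, with a median of 792 nt against 2857.5 nt for all mRNA genes. The share of other genes of equal mRNA length with a peak was 36.9%, and 57.4% of the subunit genes had one. The 39 genes with a peak and the 29 without had similar mRNAs, with medians of 757 and 805 nt and of 13.4 and 12.7 RRACH motifs per kb.

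The stretches on which the comparison of Fs with Fts turns are shown first. They are windows of 29 nt of coding sequence in regions found in at least 2 samples, written 5′ to 3′ from the RefSeq Sscrofa11.1 genome. The RRACH word nearest to the middle of the region, within its coding part, is in capitals. NDUFV2 (chr6:98840655-98840683, minus strand, exon 4 of 8), NDUFS5 (chr6:94916127-94916155, plus strand, exon 2 of 3), COX6A1 (chr14:40410576-40410604, plus strand, exon 3 of 3), COX5B (chr3:56632033-56632061, minus strand, exon 1 of 4) and COX6C (chr4:37076513-37076541, plus strand, exon 3 of 4) are the genes with peaks in all 3 Fts and no Fs sample. The stretches of NDUFV2, NDUFS5 and COX6A1 lay in a peak of all 3, those of COX5B and COX6C only in Fts2 and Fts3. NDUFA9 (chr5:65770524-65770552, minus strand, exon 7 of 11) had its region in 3 Fs and 0 Fts samples, and SDHB (chr6:75653326-75653354, minus strand, exon 6 of 8) in 2 Fs samples. NDUFB9 (chr4:15108888-15108916, minus strand, exon 3 of 4) and NDUFA13 (chr2:58402461-58402489, minus strand, exon 3 of 5) had theirs in both groups.
NDUFV2: gatttagcccaaAGACAgaatggatggct
NDUFS5: aggccttgacttAGACCgctggatgacaa
COX6A1: taaccctcatgtGAACCcacttccaactg
COX5B: cgctagccgcgcAGACCttgagggcccga
COX6C: tttgctgtggctGAACCaagaaagaaggc
NDUFA9: ccttgggcaaggAGACAgtgaaacaacca
SDHB: ctggtggaatggAGACAagtacctgggac
NDUFB9: gagcagtggaagAGACTtcggagagaaag
NDUFA13: cctgcagatcgaGGACTtcgaggcccgaa

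The peaks of the 6 samples merged into 66 regions on the subunit mRNAs. At least 1 RRACH word on the transcript strand was present in 57 of the 66 regions (86.4%), and 81.7% of regions of equal length on other genes held one. The word GGACT, which is 1 of the RRACH words, was present in 14 regions (21.2%) and in 21.3% of equal-length regions on other genes. A match in these windows is a description of the sequence and does not place the methylated base.

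The question of the study was how m6A on sperm mRNA differs between Fs and Fts. In Fs, 12, 10 and 14 of the 68 genes had a peak, and in Fts 17, 18 and 24 had one. Every Fts sample was above every Fs sample. As shares these were 17.6% ± 2.94 (SD, n = 3) in Fs against 28.9% ± 5.57 in Fts, which is 11.3 points apart. All other genes together overlapped between the groups, with 29.0% ± 3.07 in Fs and 29.4% ± 2.41 in Fts. Other genes of equal mRNA length did not overlap either, with 12.5%, 15.2% and 14.4% in Fs and 15.3%, 18.1% and 18.6% in Fts, so a separation of the samples was not particular to the subunit genes.

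Set against other genes of equal mRNA length, the subunit genes had a share higher by 5.18 points in Fs1, lower in Fs2 with -0.455 points, and higher by 6.20 points in Fs3. In Fts1, Fts2 and Fts3 it was higher by 9.66, 8.34 and 16.7 points. The mean was 3.64 ± 3.58 points in Fs and 11.6 ± 4.48 in Fts, so the Fs mean was about as large as its SD while the Fts mean was larger. The other genes include any that have no RNA in sperm, which the peak lists do not show.

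**Figure D1:**
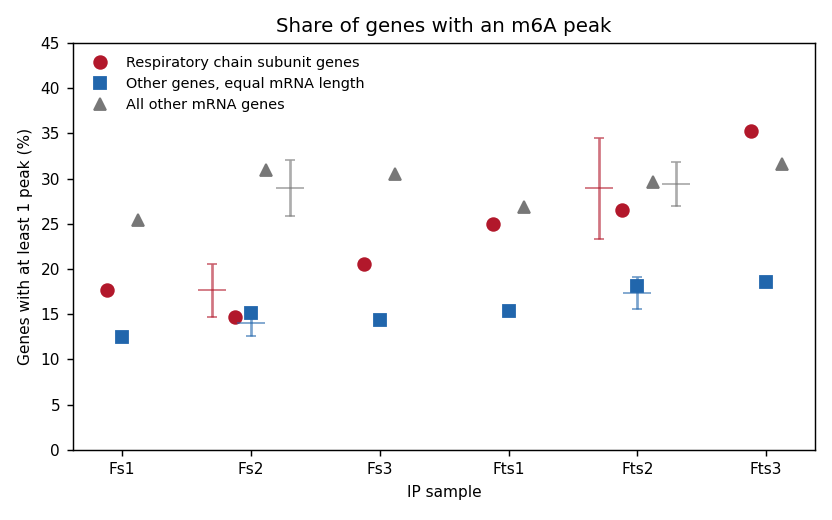
Share of genes with at least 1 m6A peak (y axis, percent) in each IP sample (x axis). Circles are the 68 subunit genes, squares the other genes at equal mRNA length and triangles all other mRNA genes; horizontal dashes with bars are group means with SD of 3 samples. The subunit genes lie at 14.7% to 20.6% in Fs and 25.0% to 35.3% in Fts, and all other genes at 25.4% to 31.6% in both groups.

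The peaks themselves numbered 14, 12 and 18 in Fs and 20, 23 and 29 in Fts, a mean difference of 9.33 peaks. The Fts lists also held more peaks in all, so the count was set against the peaks on mRNA of each sample. Per 1000 such peaks the subunit mRNAs had 2.05, 1.36 and 2.06 in Fs and 2.36, 2.22 and 2.72 in Fts, and the groups still did not overlap. Genes of equal mRNA length were not counted on this scale, and by share they also separated the groups. The median score of these peaks was 11.6 ± 4.13 in Fs and 14.0 ± 4.11 in Fts, and that of all other mRNA peaks 11.3 ± 0.596 and 14.2 ± 1.70. Among peaks with a score of at least 20, the share of subunit genes was 7.84% ± 0.849 in Fs and 13.7% ± 2.25 in Fts, and the excess over genes of equal length was then 2.60 ± 0.966 points in Fs and 4.85 ± 2.55 in Fts, a gap smaller than the SD in Fts.

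Gene by gene, 17 genes had a peak in at least 1 Fts and no Fs sample (background 13.4%, and 9.17 genes at equal length). In the opposite direction, 9 had a peak in at least 1 Fs and no Fts sample (background 13.2%, and 6.19 genes at equal length). A further 13 had peaks in both groups (background 30.0%, and 9.72 genes at equal length). A peak in 3 of 3 Fts and 0 of 3 Fs samples was found on 5 genes, NDUFV2, NDUFS5, COX5B, COX6A1 and COX6C (background 3.16%, and 2.00 genes at equal length). The reverse, 3 of 3 Fs and 0 of 3 Fts samples, was found on 0 genes (background 2.36%, and 0.804 genes at equal length). Among peaks with a score of at least 20, only NDUFV2 met the rule for Fts, 1 of 68 genes or 1.47%, which is below the background of 2.94% at that score. By region the subunit mRNAs were also below other genes for this pattern, as given with the regions.

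By the rule that chose them, the 5 genes have more peaks in every Fts than in any Fs sample. No further subunit gene had that order (background 5.08%), and none had the opposite order (background 3.03%). No gene of the 11705 with a peak passed a test of its peak number between Fs and Fts. The two-sided exact sign-flip test over the 3 pairs of equal number cannot give a p under 0.25 and the exact permutation of 3 against 3 samples cannot give one under 0.1, so 0 genes had an unadjusted p under 0.05 in either. For the 5 genes the permutation p was 0.1, the smallest it can give, which follows from the rule that chose them. Their Benjamini-Hochberg adjusted permutation p over all 11705 genes was 0.698.

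Complex I, which oxidises NADH and is the largest of the complexes, had a peak on 18 of its 37 genes. Of these 4 had peaks in Fs only, 6 in Fts only and 8 in both groups. The peaks numbered 8, 8 and 10 in Fs and 10, 12 and 12 in Fts. Among the nuclear-encoded core subunits, which take part in electron transfer, NDUFV2 and NDUFS1 had peaks and NDUFS3, NDUFS7, NDUFS8 and NDUFV1 had none. Genes without a peak also included the accessory subunits NDUFA1, NDUFA2, NDUFA3, NDUFA6, NDUFA8, NDUFA12, NDUFB1, NDUFB5, NDUFB7, NDUFB11, NDUFC1, NDUFS6 and NDUFV3, and NDUFA4, a protein now counted with complex IV.

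NDUFV2, an iron-sulfur subunit of the NADH-oxidising part of complex I, had no peak in Fs and scores of 51.7, 139 and 311 in Fts1, Fts2 and Fts3. This region was the whole of exon 4 of 8 (chr6:98840633-98840749, minus strand), in coding sequence, and the peak had the same ends in all 3 Fts samples. Exon 5 had lower peaks of 3.38 in Fts1 and 9.86 in Fts2, and exon 2 had 1 of 8.53 in Fts2. The mRNA of 862 nt thus had 6 peaks in Fts and 0 in Fs, and the exon 4 region alone kept a score above 50 in every Fts sample.

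NDUFS5, a small accessory subunit on the intermembrane side, had scores of 53.2, 143 and 9.64 in Fts and none in Fs. The region (chr6:94915873-94916313, plus strand) covered exon 2 of 3 and ran into the intron before it, so that 49.4% to 64.3% of a peak lay on exons. With at least 50% of a peak required on exons, the Fts3 peak was lost and NDUFS5 left the 5 genes, of which 4 remained (background 3.10%).

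NDUFS1, the largest core subunit and a carrier of iron-sulfur clusters, had a score of 3.39 in Fs1, none in Fs2 and Fs3, and highest scores of 15.0, 10.6 and 53.6 in Fts. No region of its 19 exons was shared between the groups. The Fs1 peak lay in exon 17, and 22 nt of exon 4 (chr15:109444909-109444930, minus strand) had peaks of 5.13 in Fts2 and 53.6 in Fts3. The highest peaks of Fts1 and Fts2 were of another kind. That of Fts1 had only 25.1% on the exons of NDUFS1 and the rest upstream, where it overlapped EEF1B2 on the other strand. That of Fts2 (10.6) had only 20.7% of its length on exons, at exon 6.

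NDUFB9, an accessory subunit of the membrane arm, had its main region on the whole of exon 3 of 4 (chr4:15108875-15108988, minus strand). The score was 30.8 in Fs1, absent in Fs2 and Fs3, and 71.2, 70.3 and 23.2 in Fts. The Fs1 score lay within the range of the Fts samples, so the groups overlapped in score while they differed in the number of samples with a peak.

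NDUFA13, an accessory subunit also known as GRIM-19, had a region on the whole of exon 3 of 5 (chr2:58402421-58402492, minus strand) of 72 bp. Its score was 29.7 in Fs2, 378 in Fts1 and 1532 in Fts2, and Fs1, Fs3 and Fts3 had no peak there. Fs1 had a separate peak of 11.5 in exon 5. The Fts samples thus ranged from the highest score of this mRNA to no peak, and Fts3, the sample with the most peaks in all, was the one without.

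NDUFA9, an accessory subunit near the ubiquinone site, had the largest surplus of peaks in Fs of the 68 genes, with 2, 1 and 4 against 0, 1 and 1 in Fts. The whole of exon 7 of 11 (chr5:65770518-65770585, minus strand) had peaks of 26.2, 3.92 and 22.1 in Fs and none in Fts. Exon 6 had a peak of 21.1 and exon 4 one of 5.79, both in Fs3. A further region at exon 1 had peaks in Fs1, Fs3, Fts2 and Fts3 with scores of 3.36 to 35.2, but at most 29.4% of these peaks lay on NDUFA9 and they overlapped AKAP3, a sperm fibrous sheath gene, on the other strand. Without that region NDUFA9 was the 1 subunit gene with a peak in 3 Fs and 0 Fts samples (1.47%, against a background of 2.31% when at least 50% of a peak must lie on exons).

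NDUFB3 and NDUFA11, accessory subunits of the membrane arm, each had peaks in 3 Fs and 2 Fts samples, and both lacked one in Fts2. The scores of NDUFB3 were 41.7, 81.0 and 324 in Fs and 292 and 161 in Fts1 and Fts3. Those of NDUFA11 were 42.7, 158 and 130 in Fs and 70.2 and 42.1 in Fts1 and Fts3. The groups overlapped for both genes. Both regions lay at the first exon and reached upstream of the annotated start, with 43.7% to 52.5% of the peak on exons for NDUFB3 and 21.4% to 53.3% for NDUFA11.

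NDUFB2, another accessory subunit of the membrane arm, had low peaks of 7.42, 11.3 and 5.81 in Fs and 10.9 in Fts1. The Fs region (chr18:9134530-9135440, minus strand) was in 3 Fs and 0 Fts samples but had only 9.001% of its length on the last exon, with the rest downstream of the gene. The Fts1 peak lay in exon 3 of 4, so the groups had no region in common.

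The highest score of all subunit genes was that of NDUFB10, an accessory subunit of the membrane arm, with 547 in Fts1 and 3100 in Fts3 and no other peak. These peaks were 2244 and 2277 bp long, lay to only 12.3% and 12.2% on the last exon of NDUFB10 and overlapped RPS2, a ribosomal protein gene, on the other strand. The score 3100 is given to 178 peaks on 77 mRNA genes and does not rank them. NDUFB10 had no peak with at least 50% on its exons.

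The other complex I genes had peaks in 1 or 2 samples. NDUFB6 reached 61.2 in Fs2 and NDUFB8 32.7 in Fts2, with 3.2 in Fs3 in another exon. NDUFA5 (18.8 in Fts3), NDUFS4 (17.5 in Fs2), NDUFB4 (10.03 in Fts3), NDUFA10 (5.74 in Fs3), NDUFA7 (3.71 in Fs3) and NDUFC2 (3.14 in Fts2 and 3.56 in Fts3) were lower.

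**Figure D2:**
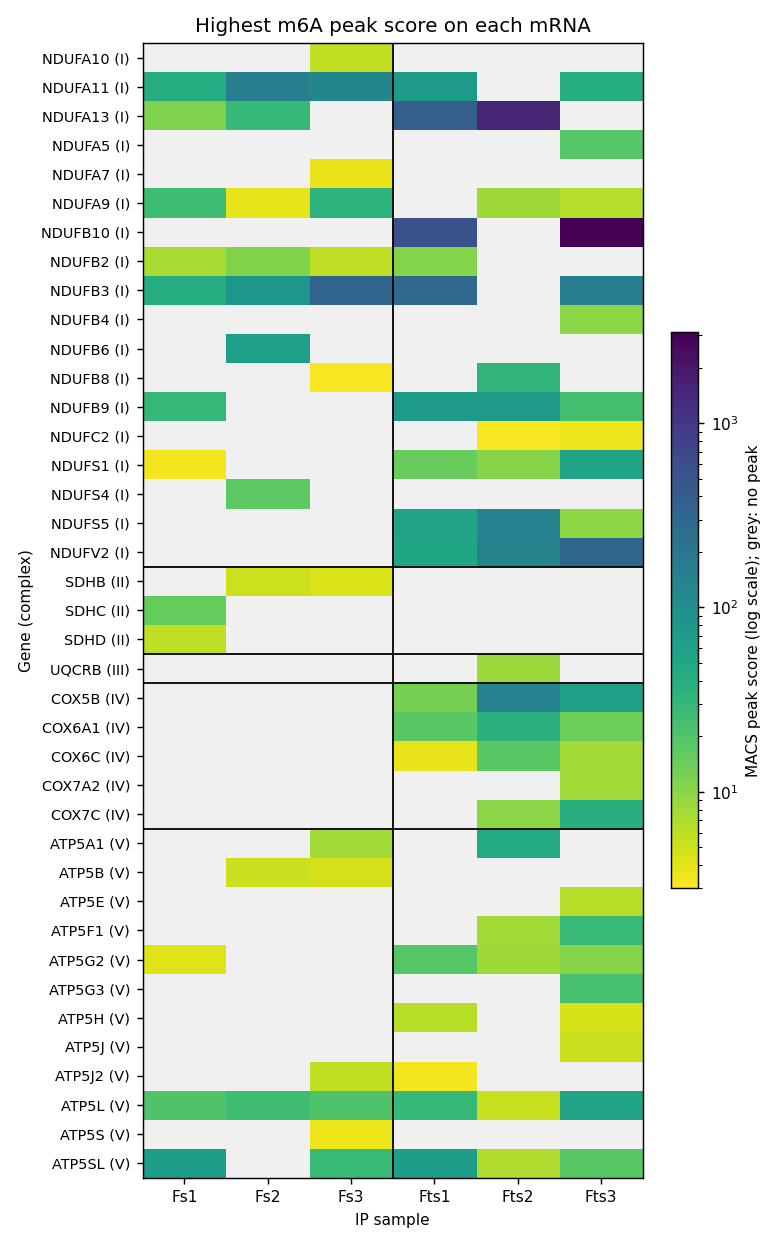
Highest score of a peak (colour, log scale; grey, no peak) on each of the 39 subunit genes with a peak (y axis, by complex) in each IP sample (x axis). The complex IV genes are coloured only in the 3 Fts columns and the complex II genes only in Fs columns, while ATP5L is coloured in all 6.

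Complex II, succinate dehydrogenase, links the citrate cycle to the chain. Its genes had 4 peaks in Fs and 0 in Fts. These lay on 3 of the 4 genes (background of all mRNA genes with a peak in Fs only, 13.2%). SDHB, the iron-sulfur subunit, had peaks of 5.12 in Fs2 and 4.40 in Fs3 on the whole of exon 6 of 8 (chr6:75653309-75653410, minus strand). SDHC, a membrane anchor, had the highest score of the complex, 15.5 in Fs1, and SDHD, the other anchor, 5.89 in Fs1. These 2 peaks lay to 44.7% and 5.03% on exons, and that of SDHD overlapped TIMM8B on the other strand. SDHA, the flavoprotein that oxidises succinate, had none although its mRNA is the longest of the complex at 2681 nt. All 4 scores were under 20, so the complex had no peak at that threshold.

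Complex III, the cytochrome b-c1 complex, was represented by UQCRB and UQCR10. UQCRB, a subunit near the ubiquinone site, had 1 peak of 8.52 in Fts2 on exon 3 of 4. UQCR10 had none.

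Complex IV, cytochrome c oxidase, which reduces oxygen, had peaks on 5 of its 8 genes. All 13 peaks were in Fts, with 3, 4 and 6 in Fts1, Fts2 and Fts3, and no Fs sample had one. The background of all mRNA genes with a peak in Fts only was 13.4%, and no share at equal length was taken by complex. Complex IV subunits outside the rule did have Fs peaks, of 7.76 in Fs1 and 3.57 in Fs3. COX5B, a zinc-binding structural subunit, had scores of 12.5, 142 and 60.6 in Fts. In Fts2 and Fts3 the peak lay at the start codon (chr3:56631990-56632180, minus strand), with 61.8% to 77.6% on exon 1, and in Fts1 it was the whole of exon 3. The 3 samples therefore shared the gene but not a single region.

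COX6A1, the isoform of subunit VIa found in most tissues, had scores of 17.7, 36.7 and 14.1 in Fts. All 3 peaks began at the start of the last exon and ran over the stop codon to beyond the annotated end of the mRNA (chr14:40410538-40410888, plus strand), with 77.8% to 88.1% on exons. COX6C, a small membrane subunit, had highest scores of 3.78, 17.7 and 7.75. The whole of exon 3 of 4, close to the stop codon, was a peak in Fts2 and Fts3, and the whole of exon 2 in Fts1. These low scores left COX6C out at a threshold of 20.

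Of the other complex IV genes, COX7C had peaks of 10.01 in Fts2 and 39.2 in Fts3, in different exons, and COX7A2 had 1 of 7.78 in Fts3. COX7A2 is the isoform of subunit VIIa of most tissues, and COX7A1, its heart and muscle isoform, had none. COX6B and COX8H had none. The 8 mRNAs are short, from 328 to 1456 nt. At a score of at least 20, peaks were left on COX5B in Fts2 and Fts3, on COX6A1 in Fts2 and on COX7C in Fts3.

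**Figure D3:**
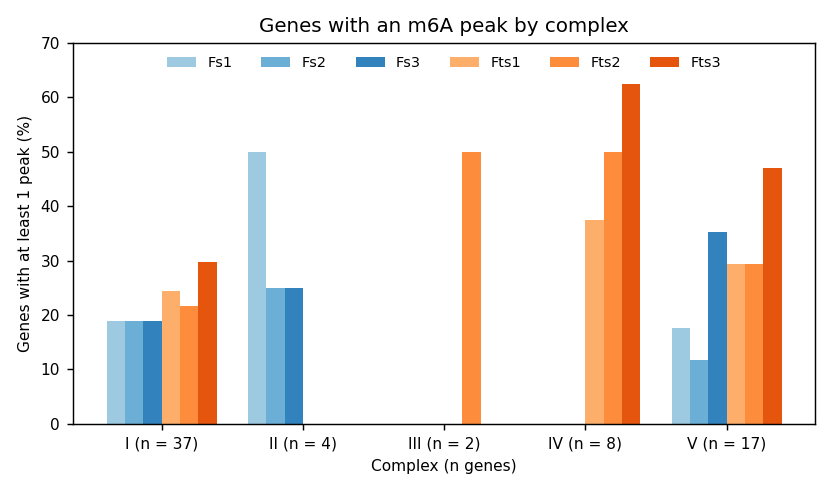
Share of the genes of each complex (x axis, with the number of genes) that had at least 1 peak (y axis, percent) in the Fs samples (blue) and Fts samples (orange). Complex IV had genes with peaks in Fts samples only and complex II in Fs samples only, on 8 and 4 genes. Single bars of complexes II and III stand for 1 or 2 genes.

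Complex V had a peak on 12 of its 17 genes, with 2 in Fs only, 5 in Fts only and 5 in both groups, and the peaks numbered 4, 3 and 7 in Fs and 7, 6 and 11 in Fts. Both of the large catalytic-head subunits had few. ATP5A1, the alpha subunit, had peaks of 7.84 in Fs3 and 44.6 in Fts2 in different exons. ATP5B, the catalytic beta subunit, had 5.20 in Fs2 and 4.67 in Fs3, also in different exons. The head subunits ATP5C1 and ATP5D had none, and ATP5E had 2 peaks of at most 6.32 in Fts3.

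The subunit c ring, which turns with the proton flow, is encoded by 3 genes for the same mature protein. ATP5G2 had a region over the stop codon in exon 5 of 5 (chr5:18871031-18871289, minus strand) with 4.24 in Fs1 and 18.5, 8.02 and 10.5 in Fts1, Fts2 and Fts3. All Fts scores there were above the single Fs score. ATP5G3 had 1 peak of 22.6 in Fts3 that lay to 28.1% on exons, and ATP5G1 had none.

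ATP5L, the membrane subunit g, was the 1 subunit gene with a peak in all 6 samples (background 7.65%). Its region at the end of the 3′UTR (chr9:45716451-45716536, plus strand) had 20.1, 25.2 and 20.5 in Fs and 29.8 and 53.2 in Fts1 and Fts3, but none in Fts2. Where present, the Fts score was above every Fs score. A lower region at exon 1 had 4.25 to 8.24 in 5 samples, with none in Fs3, and overlapped a lncRNA on the other strand.

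ATP5SL, a protein of complex I assembly despite its symbol, had 44 nt around the start codon (chr6:49410195-49410238, minus strand) with 65.4 in Fs1, 28.5 in Fs3 and 65.1, 6.90 and 18.2 in Fts. The groups overlapped. ATP5S had 1 peak of 3.60 in Fs3. Of the stalk and membrane subunits, ATP5F1 (subunit b) had its whole exon 6 of 7 with 7.85 in Fts2 and 15.5 in Fts3 and exon 5 with 29.1 in Fts3, and ATP5H (subunit d) had exon 4 of 6 with 6.34 in Fts1 and 4.54 in Fts3. ATP5J had 5.21 in Fts3, ATP5J2 had 5.71 in Fs3 and 3.35 in Fts1, and ATP5I and ATP5O had none.

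A peak in at least 4 of the 6 samples was found on 10 genes (background 21.7%, and 6.43 genes at equal length). They were NDUFA9, NDUFA11, NDUFA13, NDUFB2, NDUFB3, NDUFB9, NDUFS1, ATP5G2, ATP5L and ATP5SL. Of the rest, 14 genes had a peak in 1 sample, 10 in 2 and 5 in 3. By region recurrence was lower. Of 66 regions, 43 were in 1 sample (65.2%, against 47.5% of the 26029 regions on other genes), 9 were in both groups (13.6% against 23.0%) and 0 were in all 6 samples (3.23% of regions on other genes). Regions in Fts only numbered 36 (54.5% against 44.0%) and in Fs only 21 (31.8% against 33.0%). In contrast to the count of genes, the regions in 3 Fts and 0 Fs samples were 3 (4.55% against 6.80% on other genes) and those in 3 Fs and 0 Fts samples 2 (3.03% against 3.64%).

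For 87 of the 116 peaks the midpoint lay on the longest coding mRNA of the gene. The coding sequence more than 100 nt from both codons held 42 of them (48.3%), which is 1.26 times its share of the length of these mRNAs. The 100 nt to each side of the start codon held 18 (20.7%, ratio 1.13) and those of the stop codon 17 (19.5%, ratio 0.903). The 3′UTR held 7 (8.05%, ratio 0.442) and the 5′UTR 3. A region found in several samples counted once for each sample. The ATP5L region at the end of the 3′UTR gave 5 of the 7, and the 5′UTR peaks all lay at exon 1 of ATP5L. Near the start codon, 5 of the 18 were the 44 nt region of ATP5SL. On other genes the ratios were 1.46, 1.504, 0.641 and 0.268 for coding sequence, start codon, stop codon and 3′UTR.

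By sample, coding peaks were 37.5%, 55.6% and 64.3% in Fs and 43.8%, 52.6% and 38.1% in Fts. The groups overlapped widely, at 52.4% ± 13.7 in Fs and 44.8% ± 7.33 in Fts. Peaks near the start codon made up 11.3% ± 10.8 in Fs (4 peaks) and 24.9% ± 3.76 in Fts (14 peaks). By sample these were 12.5%, 0 and 21.4% in Fs and 25.0%, 21.1% and 28.6% in Fts, so that Fs3 lay just above Fts2 and the groups overlapped. With classes of 200 nt, which cover most of these short mRNAs, the coding share was 41.1% ± 15.4 in Fs and 23.8% ± 6.54 in Fts. With a score of at least 20 the order of the means turned, to 44.4% ± 9.62 in Fs and 54.2% ± 10.2 in Fts.

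**Figure D4:**
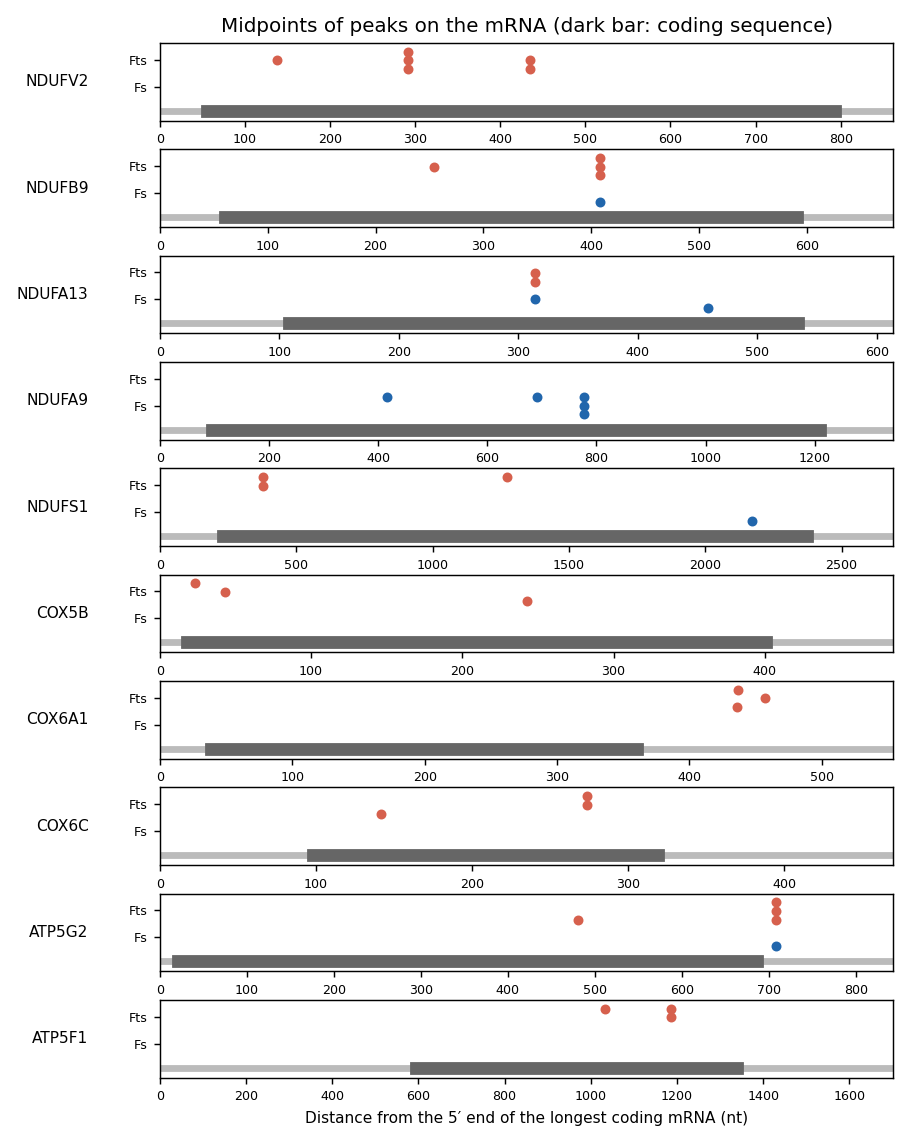
Midpoints of the peaks of 10 subunit genes along the longest coding mRNA (x axis, nt from the 5′ end; dark bar, coding sequence; light bar, UTRs), with Fs samples in blue and Fts samples in red, 1 row for each sample. Fts points stack at 1 position of NDUFV2, NDUFB9 and ATP5G2, and Fs points at 1 position of NDUFA9. Peaks whose midpoint is off this mRNA are not drawn.

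The deposited peaks often end where an exon ends, and 43 of the 116 (37.1%) were exactly 1 whole exon, against 46.4% of other mRNA peaks. In such a peak the position of m6A within the exon is not resolved. Of the 116 peaks, 75 lay wholly on exons of the gene and 24, on 13 genes, had less than 50% there. With at least 50% required, 13.7% ± 3.40 of the subunit genes had a peak in Fs and 23.5% ± 2.94 in Fts.

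Genes with related functions were counted in the same way. Assembly factors of complex I had a peak on 9 of 17 genes, with 8.33 at equal length, and NDUFAF7, a methyltransferase of complex I assembly, had one in all 6 samples with scores of 39.1, 222 and 80.6 in Fs and 219, 208 and 142 in Fts. The assembly factors of complexes II, III, IV and V that the annotation holds by symbol had 2 of 3, 1 of 3, 4 of 8 and 2 of 5, with 1.23, 1.79, 3.19 and 2.17 at equal length. Electron carriers and coenzyme Q genes had 9 of 15, with 7.15 at equal length, and 6 of the 15 were in Fs only (background 13.2%). The carriers for ADP, ATP and phosphate with the VDAC channels had 7 of 8, with 3.55 at equal length. SLC25A6, an ADP/ATP carrier, had 15.6 in Fs1 and 394, 729 and 781 in Fts. VDAC3 had 4.54, 3.60 and 7.72 in Fts and none in Fs. Of the 8 genes, 2 had peaks in Fts only and 2 in Fs only (backgrounds 13.4% and 13.2%). Those in Fs only were SLC25A4, with 17.6 in Fs1, and VDAC1, with 3.35 in Fs1 and 15.8 in Fs3. Genes of mitochondrial DNA expression had 9 of 18, with 11.1 at equal length. None of these genes passed the test between Fs and Fts, and none could, since the smallest p of the sign-flip test is 0.25.

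Markers of other cell types were counted beside these differences. Epithelial markers had 2 peaks in each Fs sample and 7 in each Fts sample, on 2, 2 and 2 and on 4, 3 and 5 of 7 genes. Over all samples 5 of the 7 had a peak, with 3.39 at equal length, and no share at equal length was taken by sample. Of all mRNA genes other than the subunit genes, 29.0% had a peak in an Fs and 29.4% in an Fts sample on average. Among the epithelial markers KRT8 had none in Fs and 52.3, 481 and 102 in Fts, while EPCAM and KRT5 had no peak. The others had peaks in both groups. CDH1 had 8.44 in Fs2, 3.28 in Fs3 and 10.6 in Fts3, and MUC1 had 3.05 in Fs1, 14.7 in Fs2, 450 in Fts1 and 1137 in Fts3. KRT18 had 3.70 in Fs3 and 6.60, 38.8 and 9.61 in Fts, and KRT19 had 13.5 in Fs1 and 107, 171 and 172 in Fts. Leukocyte markers had 2 to 3 peaks in Fs and 1 to 3 in Fts on 8 genes, with none on CD14, CSF1R and LYZ. Stromal markers had 6 to 8 and 2 to 8 on 6 genes, and sperm markers 5 to 6 and 6 to 8 on 20. The study treated the sperm pellets with Triton X-100 before RNA extraction to remove somatic cells. The part of other cells in the higher number of subunit peaks in Fts was not tested.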

How the data were processed

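The 12 libraries were 6 IP and 6 input samples of Fs and Fts, 3 each. The authors trimmed reads with cutadapt (version 1.9.3 in the submitters' processing notes), aligned them with HISAT2 to Sscrofa11.1 (susScr11), called peaks with MACS for each IP sample against its input and kept peaks on mRNAs. The deposited value of a peak is the authors' MACS score, which was used as a description only. The libraries were directional. The list of the authors' own differential sites holds the results of their comparison and was not used. No columns of per-sample values were left out.

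Peaks were placed with Python 3.11.15 (numpy 2.4.6, pandas 2.3.3, pysam 0.24.0) on RefSeq mRNAs (Annotation Release 106) by an overlap of at least 1 bp with an exon of the same strand. The share at equal length is the mean, over the subunit genes, of the share of other genes with a peak in the same bin of 0.25 on log2 of the longest mRNA, with at least 25 genes in a bin. Codon classes reach 100 nt to each side. Peaks per gene were compared by an exact sign-flip test (two-sided) with samples paired by number, with Benjamini-Hochberg adjustment over all 11705 genes with a peak. The code was tested on simulated data. Named with values were genes with a peak in at least 4 samples or in all 3 of a group and none of the other, the highest score of each complex, NDUFS1 and isoform pairs. Other names complete the account of the 68 genes, of which 1 is counted but not reported by name here. The genes and lists were chosen with earlier results of these data known. Each group holds samples of 3 boars, the labels do not tie a number to a boar, and p-values measure the spread between these samples. Alternatives covered score thresholds of 20 and 50, the overlap, the exons, the length bins, the codon classes and the omission of each sample. No values of any supplement were used.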

Additional observations from a re-analysis of the deposited data

How the results depend on the processing

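Of 109 alternative values, 23 moved by more than the SD of the samples or, for counts, by more than a factor of 1.5. The other 86 say less about stability than their number, since 18 could not change because the sample left out was of the other group and 2 are the smallest p the design allows. A change of sign was seen in 0. It was possible only for the excess over genes of equal length and the difference in peaks, as shares, counts, scores and p-values cannot be negative. The Fs excess over genes of equal length, 3.64 points with an SD of 3.58, fell within that SD to 0.2498 points at a score of at least 50, 0.966 with at least 50% of a peak on exons and 1.02 by product name. With a score of at least 20, the share of subunit genes with a peak was 7.84% in Fs and 13.7% in Fts, the excess in Fts over genes of equal length 4.85 points, the coding share 54.2% in Fts against 44.4% in Fs (the opposite order of 44.8% and 52.4% without the threshold), the difference in peaks per sample 3.33, the genes with a peak in 3 Fts and 0 Fs samples 1 and the regions 21. With a score of at least 50 the same values were 2.94%, 9.31%, 3.26 points, 53.3%, 4.33 peaks and 1 gene, and the coding share in Fs could not be given because a sample had no placed peak. With at least 50% of a peak on exons, the Fs share was 13.7% and 1 gene, NDUFA9, had peaks in 3 Fs and 0 Fts samples. With codon classes of 200 nt the coding share was 23.8% in Fts and 41.1% in Fs. With the highest peak of each gene the median score in Fts was 20.8. Fewer peaks enter under the score thresholds, and the cause of the other moves was not tested.

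Without each sample in turn, the genes with a peak in every Fts and no Fs sample numbered 5 to 8 and those with the opposite pattern 0 to 2. Without Fs1, ATP5G2, NDUFB9 and NDUFS1 joined the 5 genes and ATP5B and SDHB had the opposite pattern. Without Fts1, ATP5F1, COX7C and NDUFC2 joined and NDUFB2 had the opposite pattern. Without Fts2, ATP5H and NDUFB10 joined, for 7 genes. In 2 samples of a group these patterns are easier to meet, and the share of all genes that met the rule was 3.88% to 4.83% for Fts and 3.07% to 4.27% for Fs.

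After the data were seen, 88 subunit genes were also taken by product name, without ATP5S and ATP5SL and with 22 genes outside the symbols of the rule. The excess in Fts was then 7.03 points, and 1 of the 88 genes had peaks in 3 Fs and 0 Fts samples (background 2.36%). Peaks in 3 Fts and 0 Fs samples were found on 5 of them (background 3.16%).

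The number of the sample served as replicate block in the test, with a smallest p of 0.25. With no replicate block the smallest p was 0.1, and 0 genes were called either way. The deviations of samples with the same number from the group means had correlations of 0.0103, -0.0143 and 0.0129 over 11705 genes, so the data do not show that the numbers pair the samples. The peak lists hold no reads, so a missing peak cannot be told from too few reads at that place.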

Other observations

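The subunits that have no gene symbol of the rule were read by their product names, after the data were seen. Of these 22 genes, 9 had a peak in at least 1 sample, with 8.64 at equal length. LOC100624067, which encodes the common isoform of cytochrome c oxidase subunit 4, had a peak of 343 in Fts2 and of 227 in Fts3 and none in Fs or Fts1. LOC100156879, the core protein 1 of the cytochrome b-c1 complex, had peaks in 5 samples, with highest scores of 7.27 in Fs1 and 5.32 in Fs3 and of 26.2, 51.0 and 7.86 in Fts. LOC100524308, the b-c1 subunit 8, had 9.72, 12.5 and 4.22 in Fs and none in Fts. Of the other complex III genes in this set, those for core protein 2, the Rieske protein and subunit 6 each had 1 peak, in Fts3 or Fts2. Outside the rule complex IV also had peaks in Fs, 7.76 in Fs1 on LOC100516606 (the subunit 7A-related protein) and 3.57 in Fs3 on LOC100626250 (subunit 6A2). The testis isoforms of subunits 6B (LOC110261055), 7B (LOC100517408) and 8 (LOC100157935) had no peak in these samples. This was not particular to them, as subunits 7B (LOC100516480) and 8A (LOC100522725) had none either. The gene like subunit 6B1 (LOC100519366) had a peak only in Fts3, of 6.34.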
